A study of Rattus norvegicus with 18 samples.

Results

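Low response trainer rats were bred for a small gain in running distance after treadmill training, and the comparison described here asks what that training did to the muscle transcriptome of this line. It sets 3 trained rats of the line (LRTT) against 3 untrained rats (LRT), so that 6 of the 18 libraries of the study were compared, 1 library per rat. Which library belongs to which group was taken from the labels. The rats of both groups were males of generation 15, derived from the genetically heterogeneous N:NIH stock, and had their running capacity tested at 10 to 12 weeks of age and again at the end of the training period. LRTT rats ran on an inclined treadmill 3 days per week for 8 weeks with rising speed and duration, and LRT rats did not train but took the same tests. The gastrocnemius, the large calf muscle of mixed fibre type, was taken 48 hours after the last test, and both groups had taken that maximal test. The line was selected on the outcome of this training, and the 3 trained and 3 untrained rats are different animals. HRT and HRTT, the untrained and trained rats of the line bred for a large gain, are used beside them where a difference between the lines was tested.

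Skeletal muscle is built of slow fibres, which contract slowly and rely on mitochondria, and fast fibres, which depend more on glycolysis, and each type carries its own set of myosin, troponin and tropomyosin proteins. A piece of whole muscle also holds nerve, connective tissue, vessels, fat and resident immune cells. Endurance training is known for raising the oxidative capacity of fibres and for growth of capillaries.

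The files hold 2 kinds of value. Raw read counts per rat cover 32882 genes by Ensembl identifier. Expression levels by gene symbol cover only genes that had passed the test of the study between LRTT and LRT, with 1 pooled value per group, no value per rat and no named unit. Identifiers and symbols could not be paired, since 0 of the 32882 identifiers were found in the reference table. The named genes below therefore have no replicate error, their choice rests on these same samples, and a level is compared only within a gene (sums over the listed markers of a cell type are given as a description). Total counts were 37849730, 40180944 and 41446415 in LRT replicates 1, 2 and 3 and 32902042, 25084058 and 36404512 in LRTT replicates 1, 2 and 3. Each column heading carries an unexplained number, which is 2 in the 3 LRTT columns and 3, 1 and 1 in the LRT columns. Whatever it marks cannot be told apart from training. The labelled tissue could not be checked in the counts, and of 12 genes that mark muscle fibres the level table lists only Myh7.

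The level table lists 255 genes, 174 higher and 81 lower in LRTT, so that 68.2% of the genes it lists were higher after training. Genes of slow fibres, of myelin, of tendon and matrix and of the antiviral interferon response were listed higher, while genes of MHC class II and most listed genes of fat storage were listed lower. The median absolute log2 ratio of the 255 genes was 1.23 (log2 of the LRTT level over the LRT level). Levels were at least 4-fold higher in LRTT for 33 genes and at least 4-fold lower for 10. Of the 255 genes, 63 belong to any of 29 lists of muscle programs and cell type markers.

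**Figure D1:**
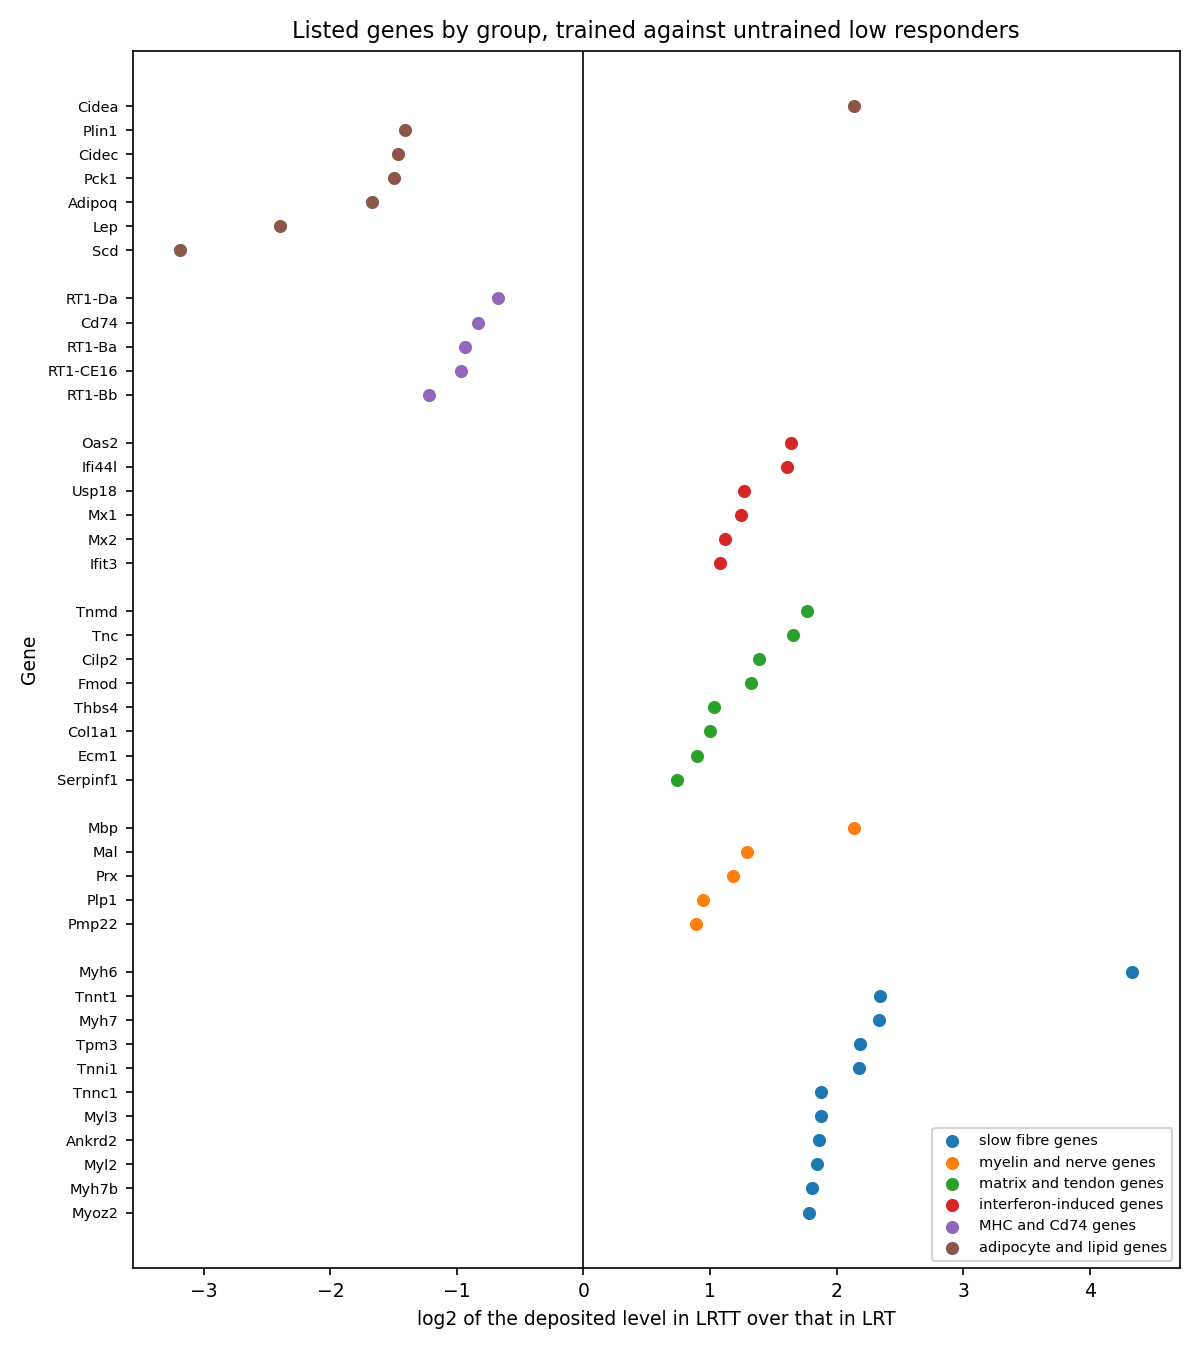
Log2 ratio of the deposited level in LRTT over that in LRT (horizontal axis) for the genes of 6 groups that the level table lists (vertical axis, 1 point per gene, colour by group). All 11 slow fibre genes lie to the right of 0 and all 5 MHC and Cd74 genes to the left, and the adipocyte and lipid genes lie to the left except Cidea, where Scd was taken into the group from the fatty acid list, whose Fabp3 is listed higher and not plotted.

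Promoter sequences are shown first for 6 genes of 3 of these groups, to show what the starts of co-listed genes hold. The interferon-induced genes and the MHC and Cd74 genes are both cut from the interferon response list, after its members were seen to differ in direction, so that the single direction of each follows from the split. They are from RefSeq (build GRCr8), which holds promoters for 182 of the 255 listed genes. Each shows the 250 bases before the annotated start of the gene, 5′ to 3′ on the strand of the gene. The first pair are slow fibre genes. Myoz2 encodes a sarcomeric protein of slow and cardiac muscle, and its window (chr2:213852779-213853028, minus strand) holds 1 match to the MEF2 site, in capitals, a letter pattern found in 0.523% of all 33469 promoters. Myh6 encodes the alpha heavy chain of cardiac myosin, and its window (chr15:32411698-32411947, minus strand) holds 1 MCAT element (CATTCC on either strand, in capitals), found in 12.1% of all promoters.
Myoz2: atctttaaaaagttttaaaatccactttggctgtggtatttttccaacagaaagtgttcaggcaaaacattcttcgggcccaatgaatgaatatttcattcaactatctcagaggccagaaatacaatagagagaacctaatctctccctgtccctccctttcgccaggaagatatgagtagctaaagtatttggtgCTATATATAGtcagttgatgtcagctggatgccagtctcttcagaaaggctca
Myh6: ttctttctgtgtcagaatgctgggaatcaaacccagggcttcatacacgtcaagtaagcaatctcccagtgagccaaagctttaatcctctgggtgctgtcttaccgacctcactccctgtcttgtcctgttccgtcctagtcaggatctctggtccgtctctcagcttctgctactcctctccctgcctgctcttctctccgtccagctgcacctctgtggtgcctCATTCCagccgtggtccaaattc

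Of 9 slow fibre genes with a promoter in the table, 1 holds the MEF2 pattern and 2 the MCAT element, and 9 of 9 hold an E-box (CANNTG), which 65.5% of all promoters hold. The next pair are genes that interferon induces. Ifi44l (chr2:243328473-243328722, plus strand) holds 2 matches to the interferon-stimulated response element (GAAA, 2 bases of any kind, then GAAA, on either strand, in capitals), and Ifit3 (chr1:241527076-241527325, plus strand) holds 1. The pattern was found in 2 of 4 interferon-induced genes with a promoter, counting Herc6 (1.03 in LRT and 1.95 in LRTT), which was added after its value was seen, and in 3.41% of all promoters.
Ifi44l: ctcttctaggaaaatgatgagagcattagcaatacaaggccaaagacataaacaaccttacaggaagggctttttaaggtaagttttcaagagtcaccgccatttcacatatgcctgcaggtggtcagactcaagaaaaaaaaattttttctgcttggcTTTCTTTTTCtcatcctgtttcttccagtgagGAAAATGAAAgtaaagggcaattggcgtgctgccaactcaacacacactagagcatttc
Ifit3: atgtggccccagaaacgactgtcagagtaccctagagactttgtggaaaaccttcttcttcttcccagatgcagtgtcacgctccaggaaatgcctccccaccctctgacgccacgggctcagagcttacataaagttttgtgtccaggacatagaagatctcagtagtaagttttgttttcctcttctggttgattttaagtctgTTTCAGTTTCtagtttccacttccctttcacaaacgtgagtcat

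The last pair encode chains of MHC class II, which present peptides to T cells. The capitals mark the CCAAT box on either strand, which RT1-Da (chr20:4515165-4515414, plus strand) holds 1 time and RT1-Bb (chr20:4604119-4604368, minus strand) 2 times. It was found in 6 of 6 MHC and Cd74 genes with a promoter, RT1-Db2 (3.19 in LRT and 1.40 in LRTT) among them, which was added after its value was seen, and in 34.0% of all promoters. The MHC class I entries RT1-T24-3 and RT1-T24-1,RT1-T24-2, listed higher in LRTT, were not added to the group. A match describes the letters of the window and not a bound factor, and binding was not measured.
RT1-Da: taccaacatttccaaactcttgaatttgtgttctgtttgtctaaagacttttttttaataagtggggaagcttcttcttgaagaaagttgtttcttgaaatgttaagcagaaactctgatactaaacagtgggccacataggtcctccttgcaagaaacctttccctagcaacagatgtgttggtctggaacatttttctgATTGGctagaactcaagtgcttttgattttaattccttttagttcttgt
RT1-Bb: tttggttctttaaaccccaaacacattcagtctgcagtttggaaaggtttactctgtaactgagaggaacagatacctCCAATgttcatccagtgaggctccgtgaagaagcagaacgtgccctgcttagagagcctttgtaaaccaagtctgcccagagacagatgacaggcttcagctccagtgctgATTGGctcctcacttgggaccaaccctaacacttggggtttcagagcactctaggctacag

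Of the lists, slow fibre contraction had the largest share of members in the table. The table lists 11 of 17 slow fibre genes, 11 higher and 0 lower in LRTT, with a median log2 ratio of 1.88, and 0 of 16 fast fibre genes. Because the table holds only genes called between these groups, an unlisted gene was not shown to be equal. Tnnt1, Tnni1 and Tnnc1 encode the slow forms of the 3 troponin subunits, which switch contraction on with calcium. Tnnt1 had a level of 98.1 in LRT and 496 in LRTT. Tnni1 had 95.5 and 431, and Tnnc1 had 111 and 407. The 3 subunits thus stood at ratios close to each other, log2 2.34, 2.17 and 1.88. Myh7, the myosin heavy chain of slow fibres, had a level of 41.6 in LRT and 210 in LRTT. Its light chains Myl3 and Myl2 had 296 against 1086 and 60.8 against 218. Tpm3, a slow tropomyosin, had 98.6 against 448, and the log2 ratios of these 4 genes lay between 1.84 and 2.33. Myoz2, whose promoter is shown above, had 57.5 against 198, and Ankrd2, a stretch-responsive gene of slow muscle, had 11.9 against 43.3. Myh7b had 0.793 against 2.78. Myh6 had the largest ratio of the group but a low level, 0.241 in LRT and 4.87 in LRTT. More slow fibres in a sample and more of this RNA per fibre cannot be told apart in whole muscle, and the same holds for each group below.

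The 255 listed genes compare in number with 1.89% of the 13478 genes tested in the counts, so that metabolic lists with 0 or 1 listed members are near that share. The table lists 0 of 35 nuclear genes of oxidative phosphorylation, 0 of 13 mitochondrially encoded genes and 1 of 37 genes of angiogenesis, Apln, a ligand of vessel cells (1.22 against 2.27). Ldhb, the lactate dehydrogenase subunit typical of oxidative tissue, had a level of 40.3 in LRT and 113 in LRTT. Fabp3, the fatty acid binding protein of heart and oxidative muscle, had 142 and 364. Both were listed higher, whereas Pdk4, which holds back glucose oxidation by inhibiting pyruvate dehydrogenase, had 108 in LRT and 54.7 in LRTT. Ucp2, a mitochondrial carrier, was also listed lower, with 7.81 and 3.87. Among 32 regulators of endurance adaptation 2 are listed, both inhibitors of calcineurin, the phosphatase that acts in slow fibre gene expression. Rcan1 had 42.7 in LRT and 78.4 in LRTT, and Rcan3 had 0.769 and 27.0. Of 47 inflammation and cytokine genes, 20 circadian clock genes and 24 calcium handling genes, 0 are listed.

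Markers of other cell types were listed in the same table. Of 10 markers of nerve and Schwann cells 5 are listed, and 5 of 5 were higher in LRTT, with a summed level of 32.6 in LRT and 68.6 in LRTT, to which Pmp22 contributed most. Mbp, myelin basic protein, had a level of 2.81 in LRT and 12.3 in LRTT. Mal, a proteolipid of myelin, had 1.16 and 2.85, and Prx, periaxin, had 0.860 and 1.94. Pmp22, a further myelin protein, had 26.6 and 49.4, the smallest ratio of the 5. Sox10, S100b, Gfap, Ncam1 and Nefl of the same list are not in the table. Further myelin genes were noticed after the values were seen. Pmp2, the fatty acid binding protein of myelin, had 0.434 and 2.79. Ugt8 and Fa2h, enzymes that make myelin lipids, had 0.190 against 0.821 and 0.113 against 0.373. Drp2, which binds periaxin in Schwann cells, had 0.336 against 1.18. The part that nerve tissue in the samples had in the other differences was not tested.

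Connective tissue genes were also listed higher. Of 46 genes of the extracellular matrix 8 are listed, 8 higher and 0 lower, with a median log2 ratio of 1.18, and of 13 markers of fibroblasts and tendon 4 are listed, all higher, with summed levels of 54.1 in LRT and 116 in LRTT, to which Col1a1 contributed most. Tnmd, a membrane protein of tendon cells, had a level of 1.81 in LRT and 6.16 in LRTT. Tnc, tenascin C, had 0.469 and 1.48, Cilp2, a cartilage matrix protein, had 0.686 and 1.79, and Fmod, a proteoglycan of tendon collagen, had 8.28 and 20.8. Col1a1, the alpha 1 chain of type I collagen, had 30.6 and 61.1. Kera, a proteoglycan that is on no matrix list and was put with these genes after its values were seen, had 5.05 and 25.8. Tendon and matrix genes were thus listed in the same direction as the slow fibre and myelin genes, and how much tendon each sample held was not tested. At the junction of nerve and muscle, 3 of 27 genes are listed, namely Vat1l, with 0.0329 in LRT and 0.352 in LRTT, Chrnd, the delta subunit of the acetylcholine receptor, with 2.67 in LRT and 5.39 in LRTT, and Wnt16, with 1.05 and 3.68.

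Immune genes were listed in both directions. Of 46 genes of the interferon response 11 are listed, 6 higher and 5 lower in LRTT. The 6 higher are antiviral effectors and regulators of type I interferon signalling. Oas2, a sensor of double-stranded RNA, had a level of 0.144 in LRT and 0.447 in LRTT. Ifi44l had 0.736 and 2.24, and Ifit3, which binds viral RNA, had 0.806 and 1.70. Mx1 and Mx2, antiviral GTPases, had 0.531 against 1.26 and 1.24 against 2.69, and Usp18, which dampens interferon signalling, had 0.816 against 1.97. All 6 had levels under 3 in both groups. The 5 lower genes act in antigen presentation. Cd74, the invariant chain that guides MHC class II, had 82.9 in LRT and 46.6 in LRTT. RT1-Da had 38.3 and 23.97, RT1-Ba had 22.2 and 11.6, and RT1-Bb had 18.5 and 7.94. In untrained HRT, Cd74 (44.3), RT1-Da (21.1) and RT1-Bb (6.14) were also listed below their LRT levels. RT1-CE16, of MHC class I, had 16.4 in LRT and 8.41 in LRTT. Other MHC class I genes, in no list and noticed after their values were seen, were listed higher, RT1-T24-3 with 3.13 in LRT and 11.8 in LRTT and the locus RT1-T24-1,RT1-T24-2 with 0.534 and 1.48. The members of these families are alike in sequence and their reads can be split between copies, so that single values are uncertain. Of the markers of macrophages (14), lymphocytes (13) and neutrophils and mast cells (13), 0 are listed.

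Adipocyte genes were mostly listed lower. Of 14 adipocyte markers 6 are listed, 5 lower and 1 higher in LRTT, with summed levels of 28.85 in LRT and 14.4 in LRTT, to which Adipoq contributed most. Adipoq, the adipocyte hormone adiponectin, had a level of 20.3 in LRT and 6.39 in LRTT. Lep, leptin, had 1.36 and 0.258, and Plin1 and Cidec, which coat the lipid droplet of fat cells, had 3.10 against 1.16 and 2.07 against 0.750. Pck1, which supplies glycerol to stored fat, had 0.715 and 0.253. Scd, which desaturates fatty acids, had 12.5 and 1.38, a log2 ratio of -3.19. The exception was Cidea, a lipid droplet protein of brown fat, with 1.26 and 5.55. In untrained HRT, Adipoq (8.30), Lep (0.5), Plin1 (1.29) and Scd (0.329) were also listed below their LRT levels. Cidec, Pck1 and Cidea are not listed between HRT and LRT. The fat content of the samples was not measured, and its part in these values was not tested.

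Over the whole table, the largest ratios among genes of at least 1 in both groups included single regulators. Foxp2, a forkhead transcription factor, had a level of 41.3 in LRT and 1.15 in LRTT, a log2 ratio of -5.17. Ostn, the muscle hormone musclin, had 177 and 39.4, a log2 ratio of -2.17. Crym, a thyroid hormone binding protein, had 1.46 and 7.05, Trim45, a ubiquitin ligase, had 1.53 and 7.41, and the uncharacterized LOC102549726 had 5.25 and 80.6. Myogenesis genes went both ways, with Igfn1 at 8.79 against 21.95 and Igfbp6 at 36.7 against 71.3, and with Ankrd1, a stress-responsive muscle gene, at 30.2 against 9.81. Of 24 genes of the heat shock and unfolded protein response 2 are listed, the chaperones Hspa2 (4.196 against 9.20) and Hspb7 (75.3 against 152), both higher. Of 34 redox genes 3 are listed, with Gpx1, a glutathione peroxidase, at 108 against 192, Ncf1, a subunit of NADPH oxidase, at 2.43 against 5.66, and Ucp2 as given above. Of 33 genes of atrophy and autophagy 2 are listed, Gadd45b higher (4.26 against 7.15) and Eda2r, a receptor of the TNF family, lower (7.43 against 3.17). Of 12 endothelial markers the table lists Vwf, with 3.09 in LRT and 1.91 in LRTT, and of 15 blood and 10 smooth muscle markers it lists 0.

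The other genes among the 10 with the largest ratios downward were Sncg, gamma-synuclein, at 32.6 against 9.57, Tmem158 at 3.86 against 1.05, Ccdc77 at 3.88 against 1.103, LOC100363537 at 4.82 against 1.303, AABR07060872.1 at 10.5 against 1.04 and AABR07030351.1 at 26.2 against 7.84, beside Scd and Adipoq given above.

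The table also lists the precursor gene of miR-675, which lies within the imprinted H19 RNA, with 10552.5 in LRT and 24422 in LRTT. Reads in an mRNA library do not measure the mature miRNA, and for so short a feature the level depends on few positions. The gene was noticed after its values were seen. Its mature arms (RefSeq, GRCr8, minus strand), shown because they differ in their seed (bases 2 to 8, in capitals), lie at chr1:207161800-207161821 for the 5p arm and chr1:207161766-207161786 for the 3p arm.
rno-miR-675-5p: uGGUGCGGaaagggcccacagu
rno-miR-675-3p: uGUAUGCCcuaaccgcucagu

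The same genes were set beside the trained and untrained high responders, whose table was made from other rats and lists 90 genes. The 2 tables share 40 genes, which is 15.7% of the 255 and 44.4% of the 90, and both lists were chosen for a difference on training. Of these, 33 were listed in the same direction in both lines, 28 higher and 5 lower after training. Slow fibre genes were among them. Tnnt1 had a level of 89.1 in HRT and 317 in HRTT, Tpm3 had 87.1 and 285, and Tnnc1 had 65.0 and 248. Myl2 had 42.1 and 148, and Myoz2 had 26.8 and 102. Of these 5 genes, the deposited tables that compare the lines list 0 between HRTT and LRTT and only Myoz2 between HRT and LRT. Ankrd2, a further slow fibre gene listed higher in both lines (7.54 in HRT and 16.5 in HRTT), is listed between HRTT and LRTT as well. Mbp had 1.89 in HRT and 3.69 in HRTT and was thus listed higher in both lines, and it too is listed between HRTT and LRTT. The other myelin genes named above are not listed between HRTT and HRT. They are listed lower in HRTT than in LRTT, such as Pmp22 (25.7 in HRTT), and so is Col1a1 (27.3 in HRTT). Between HRTT and LRTT 102 of the 255 genes are listed. In 99 of them HRTT and LRT lie on the same side of LRTT, and in 3 they do not. Both comparisons use the same LRTT rats. Crym had 1.09 in HRT and 4.15 in HRTT. Between untrained HRT and LRT, 50 of the 255 genes are listed as well. Of these, 44 differ from LRT in the same direction in HRT as in LRTT, 13 higher and 31 lower. The opposite holds for 6. Both comparisons use the same LRT rats, and the part that LRT had in this overlap was not tested.

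The other 7 of the 40 genes listed on training in both lines were higher after training in low responders and lower after training in high responders. These were Myh6, Kera, Trim45, Fam111a, Marc1, Chac1 and Aqp4. Myh6 had levels of 0.241 in LRT, 4.87 in LRTT, 1.44 in HRT and 0.333 in HRTT. Kera had 5.05, 25.8, 14.95 and 7.03 in the same order. Chac1, an enzyme that degrades glutathione, had 15.6, 30.6, 26.01 and 9.91, and Aqp4, the water channel of fast fibres, had 27.0, 49.1, 34.9 and 18.3. Trim45 had 1.53, 7.41, 6.63 and 3.78, Fam111a had 5.13, 17.2, 8.02 and 3.62, and Marc1 had 7.09, 16.0, 6.22 and 2.85. The level in HRT was above that in LRT for 6 of the 7 genes, with Marc1 as the exception. The difference of training effects could not be tested for these genes, since no value per rat has a symbol.

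**Figure D2:**
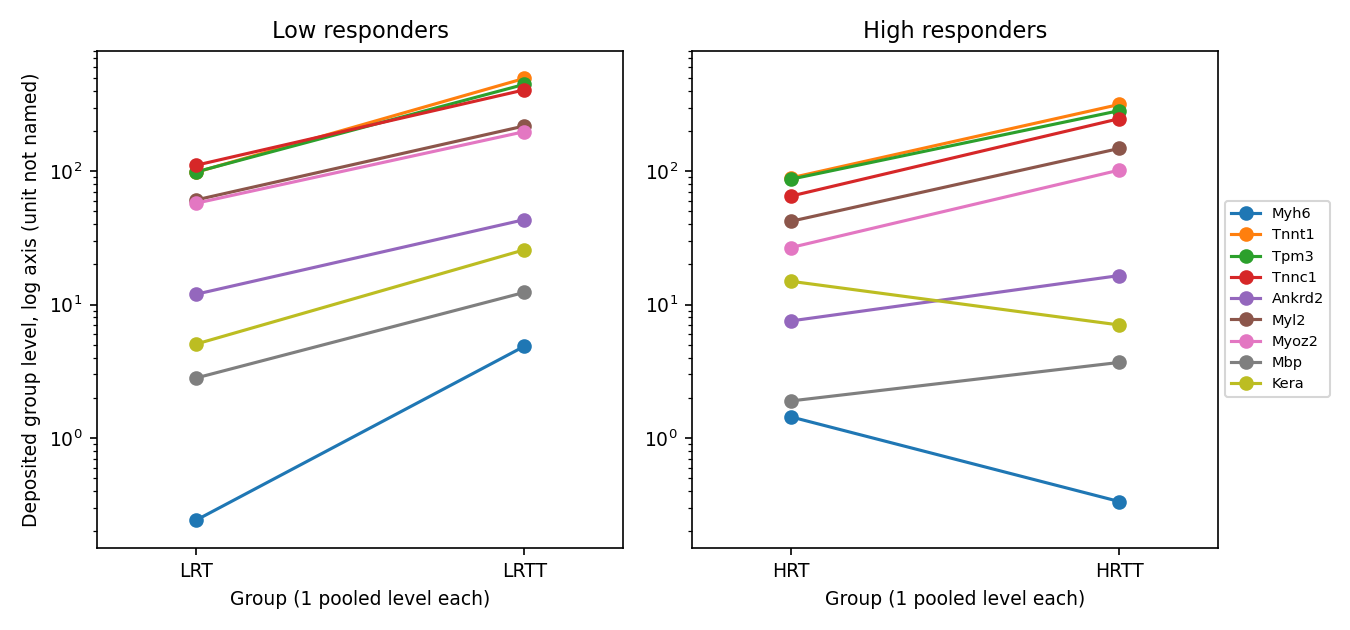
Deposited group levels (vertical log axis, unit not named) before and after training in low responders (left, LRT and LRTT) and high responders (right, HRT and HRTT), 1 pooled level per group, for 9 genes of the 6 groups that both tables list (Kera was added to its group after its values were seen). The lines run upward on both sides, except that Myh6 and Kera run downward in high responders.

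Counts per rat show how far differences between LRTT and LRT held across animals. The 6 libraries did not separate by training. Along the leading principal component of the 500 genes with most variance, which held 57.7% of the variance, LRT replicates 1, 2 and 3 scored -23.6, 14 and -19.4 and LRTT replicates 1, 2 and 3 scored 37.6, 16.7 and -25.4. LRTT replicate 1 thus stood at one end, LRTT replicate 3 stood at the other end beside LRT replicates 1 and 3, and LRT replicate 2 stood nearest to LRTT replicate 2. The second component (15.4%) also overlapped, with 17.6, 12.3 and -8.39 in LRT and 4.27, -17.4 and -8.36 in LRTT. Rats of different groups lay 47.4 ± 11.3 apart (SD, 9 pairs, Euclidean distance) and rats of the same group 48.6 ± 11.1 (SD, 6 pairs). These means differed by -1.21, which had p = 0.4 in an exact permutation test (one-sided), in which 0.1 is the smallest p that 3 rats against 3 allow. The sign turned with single choices, to 2.94 with the replicate number as a block, to 1.19 without LRT replicate 2 and to 7.91 without LRTT replicate 3. For 1 of 6 rats the closest other rat belonged to its own group.

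**Figure D3:**
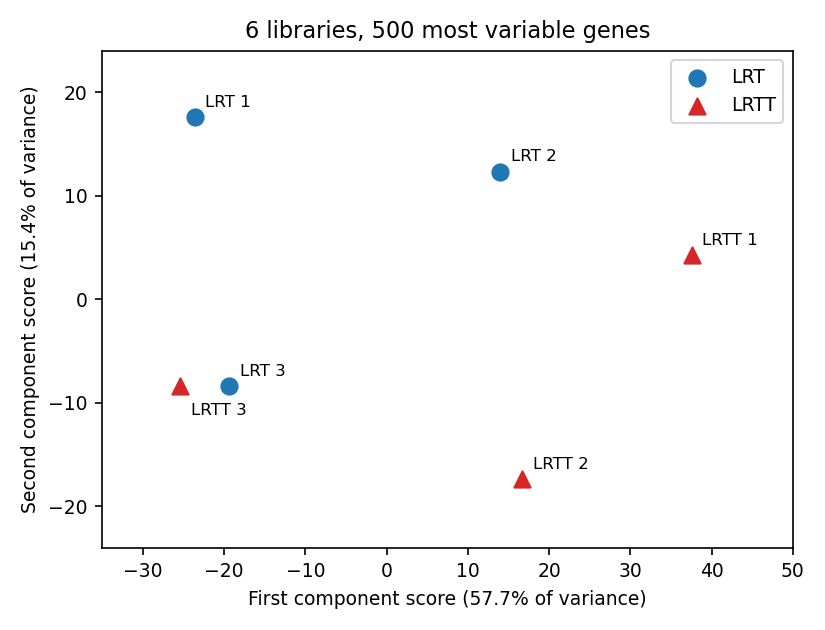
Scores of the 6 libraries on the first (horizontal, 57.7% of variance) and second (vertical, 15.4%) principal components of log2 CPM, with circles for LRT and triangles for LRTT. LRTT replicate 3 lies next to LRT replicate 3, and LRTT replicate 1 lies farthest right, at 37.6.

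No gene passed edgeR's test in the counts. Of 13478 genes tested, 0 (0%) reached an adjusted p below 0.05 and a change of more than 1.5-fold, and the smallest adjusted p was 0.411 (quasi-likelihood test of edgeR, Benjamini-Hochberg). The unadjusted p was below 0.05 for 565 genes (4.19%), of which LRTT was higher in 303 and lower in 262, where 674 would be expected with no difference. Adding a fold change of more than 1.5 left 168 higher (1.25%) and 142 lower (1.05%). The Wald test of DESeq2 called 8, with 4 in each direction, and in 8 of 8 the 3 LRTT rats lay on one side of the 3 LRT rats. The calls rest on these same counts, so that this lack of overlap is no separate support for them. Over all tested genes the groups did not overlap in 1324 (9.82%), 669 with LRTT higher (4.96%) and 655 with LRTT lower (4.86%). In HRTT against HRT, fitted together with these groups, 0 genes (0%) were called by edgeR and 335 had an unadjusted p under 0.05. The p-values rest on separate animals, 3 per group.

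The identifiers given in this and the next paragraph were taken from genes with a fold above 1.5 and no overlap of groups. The gene with the smallest p was ENSRNOG00000015347, for which no symbol was paired. It had 3.76, 3.63 and 3.90 CPM in the LRT rats (CPM are counts scaled to the TMM-adjusted total of the library) and 21.1, 19.0 and 15.1 CPM in the LRTT rats. The 3 trained rats were all higher, with 18.4 ± 3.07 CPM against 3.76 ± 0.138 CPM (SD, n = 3 each), and the untrained rats lay close together. The log2 fold change was 2.29 (standard error 0.35, unadjusted p = 4.14e-05, adjusted p = 0.411, edgeR). It was the 1 gene that edgeR called with only the LRT and LRTT libraries in the fit (adjusted p = 0.0215) and without HRTT replicate 1 (adjusted p = 0.000927), while in the other edgeR alternatives its adjusted p was 0.106 to 1. ENSRNOG00000014874 had 0.489, 0.489 and 0.281 CPM in LRT and 1.75, 1.02 and 1.40 CPM in LRTT, without overlap, on 12 to 56 counts per library. Its log2 fold change was 1.73 (adjusted p = 0.411, edgeR).

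Among genes lower in trained rats, ENSRNOG00000007744 had 17.0, 16.4 and 16.7 CPM in LRT and 8.87, 6.83 and 10.6 CPM in LRTT. The groups did not overlap, as the choice required, and the log2 fold change was -0.93 (adjusted p = 0.411, edgeR). ENSRNOG00000010725 had 4.30, 3.83 and 4.37 CPM in LRT and 2.03, 2.49 and 2.38 CPM in LRTT, with a log2 fold change of -0.86 (adjusted p = 0.475, edgeR). DESeq2's Wald test called these 4 genes, with adjusted p of 2.55e-07 for the first and 0.00971, 0.00189 and 0.0117 for the others in the order given.

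A single gene is named by identifier in both files, ENSRNOG00000042516. Its pooled level was 52.5 in LRT and 33.3 in LRTT, a log2 ratio of -0.66. Its CPM was 36.9, 29.3 and 29.0 in the LRT rats and 21.0, 15 and 22.7 in the LRTT rats, so that each trained rat lay below each untrained rat. The log2 fold change in the counts was -0.70 (standard error 0.22, unadjusted p = 0.00915, adjusted p = 0.989, edgeR). Of the 255 listed genes it is the only one whose pooled level could be set beside values per rat.

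**Figure D4:**
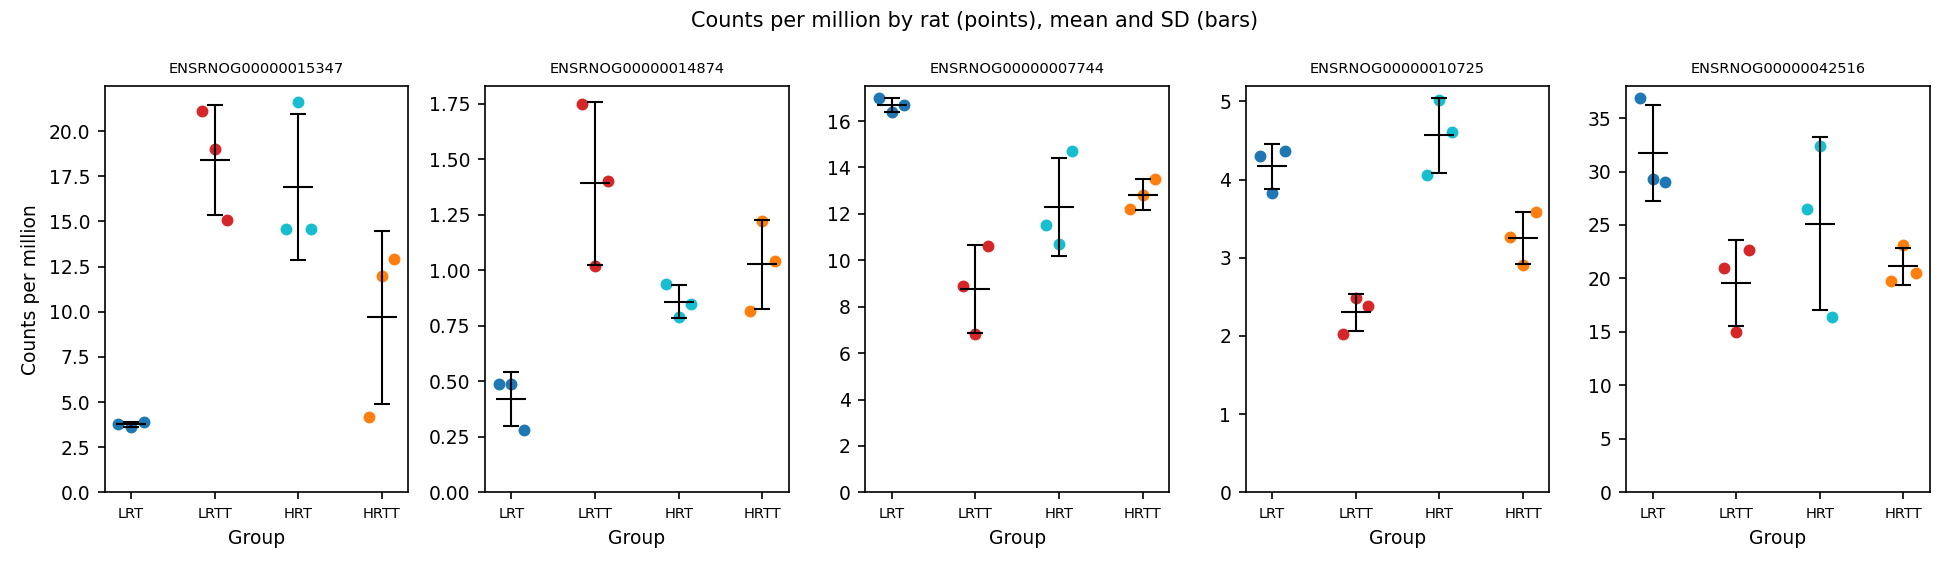
CPM (vertical axes, each from 0) of the 5 genes named by identifier in each rat (points) of the 4 groups (horizontal axes), with bars for the mean and SD of 3 rats. In each panel the LRTT points lie wholly above or wholly below the LRT points, which was a condition for choosing all but ENSRNOG00000042516. In ENSRNOG00000015347 the HRTT points lie below the HRT points.

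Another way to read the counts is to ask whether a large fold change was carried by 1 rat. Group mean CPM was at least 2-fold higher in LRTT for 241 tested genes. In 105 of these (43.6%) a single LRTT rat held over 66.7% of the summed CPM of its group, and this rat was replicate 1 in 68 genes, replicate 3 in 29 and replicate 2 in 8. The groups did not overlap in 60 of the 241. In the opposite direction 139 genes were at least 2-fold lower, of which 15 (10.8%) had 1 LRT rat over that share and 47 had groups that did not overlap. These shares are counts of genes, with no test of their difference. At 4-fold, 38 genes were higher, 22 of them with 1 LRTT rat over that share (12 replicate 1, 3 replicate 2 and 7 replicate 3), and 21 were lower, 5 of them with 1 LRT rat over it. The level table has 33 and 10 genes past 4-fold, and which of its genes are among these could not be determined without values per rat.

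**Figure D5:**
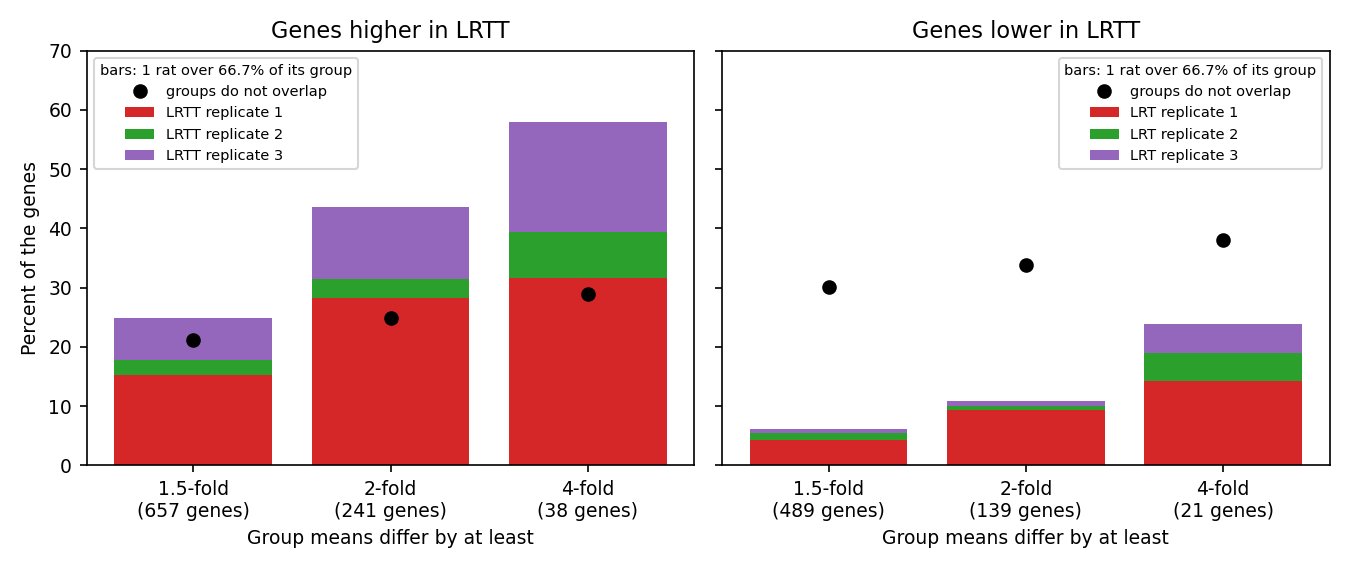
Percent (vertical axis) of the genes whose group means differ by at least 1.5-fold, 2-fold and 4-fold. Stacked bars (colour by rat) give those in which 1 rat held over 66.7% of the summed CPM of its group. Points give those in which the groups did not overlap. Among genes higher in LRTT (left) the bars reach 24.8%, 43.6% and 57.9%, and among genes lower in LRTT (right) 6.13%, 10.8% and 23.8%.

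Without LRTT replicate 3, which lay beside LRT replicates 1 and 3, the number of genes at least 4-fold lower was 83 instead of 21, with 18 of the 21 among them, and the number at least 4-fold higher was 70 instead of 38, with 31 of the 38 among them. Without LRT replicate 2 the latter was 103, with 34 of the 38 among them, and without LRTT replicate 2 it was 61, with 30 among them. Fewer of the 38 were shared when the other rats were left out, with 20 among 28 without LRT replicate 1, 23 among 42 without LRTT replicate 1 and 23 among 46 without LRT replicate 3. These exclusions were chosen after the data were seen. Without LRTT replicate 3 edgeR's quasi-likelihood test called 3 genes, 1 higher and 2 lower.

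Whether training acted otherwise in low than in high responders was tested per gene as the difference of the training effects in the fit of 12 libraries. The quasi-likelihood test of edgeR (Benjamini-Hochberg) called 0 of 13478 genes (0%), the smallest adjusted p was 0.642, and 502 genes had an unadjusted p under 0.05. DESeq2's Wald test called 3. LRTT lay wholly above LRT and HRTT wholly below HRT in 42 genes (0.312% of those tested), and the reverse held in 30 (0.223%). ENSRNOG00000015347 was one of the 42. It had 14.6, 21.6 and 14.6 CPM in HRT and 4.15, 12 and 12.9 CPM in HRTT, with overlap of HRT and LRTT rats. The number in the column heading is 2 in all HRT and all LRTT libraries and 3 in all HRTT libraries, so that whatever it marks cannot be told apart from these opposite differences, nor from those of the 7 genes given by symbol. The difference of effects was 3.09 on the log2 scale (unadjusted p = 4.77e-05, adjusted p = 0.642, edgeR). It was called by DESeq2 (adjusted p = 1.52e-06) and by edgeR without HRTT replicate 1 (adjusted p = 0.00808).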

How the data were processed

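RNA-seq libraries of gastrocnemius muscle from LRT, LRTT, HRT and HRTT rats, 3 each and grouped by their labels, were compared. The authors deposited raw read counts per gene, made per the file headers with featureCounts 1.6.4 and the Ensembl release 91 annotation, without regard to strand and with a read counted for every gene it overlaps, so that overlapping and antisense genes can share counts. Single reads of 50 bases had been aligned to Rnor_6.0 with Tophat2 per the methods, while the header names alignments in the style of another aligner. The deposited table of called genes holds 1 signal value per group, a pooled expression level from Cuffdiff whose unit is not named. Its fold changes, p-values and q-values were not used.

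Genes kept by filterByExpr (default count minimum of 10) were scaled by TMM and fitted over 12 libraries with a term per group in edgeR 4.0.16 (R 4.3.3, limma 3.58.1), with robust quasi-likelihood tests. Calls needed an adjusted p (Benjamini-Hochberg) below 0.05 and a change of more than 1.5-fold. Log2 CPM used a prior count of 2. The fit was tested on simulated data. Alternatives were DESeq2 1.42.0, RLE scaling, other filters and thresholds, fewer libraries and a replicate block. Python 3.11.15 and pandas 2.3.3 computed log2 ratios of the deposited levels, with no pseudocount and no test. Depth was 25084058 to 41446415 counts per library. Of the 255 symbols, 230 were RefSeq symbols and 8 synonyms.

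Members and gene lists were chosen with earlier results of these data known. Identifiers named were the 2 per direction with the smallest p among genes with a fold above 1.5 and no overlap of groups. Symbols named were up to 4 per list by size of ratio, all where single genes decide, and the 10 per direction with the largest ratio at a level of at least 1 in both groups. Others are said to be chosen after their values were seen. A listed gene is not reported here and was left out of the lists and figures.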

Additional observations from a re-analysis of the deposited data

Results flagged for a closer look

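ENSRNOG00000015347 was singled out because every LRTT rat lay above every LRT rat while every HRTT rat lay below every HRT rat. The difference of its training effects was 3.09 on the log2 scale (unadjusted p = 4.77e-05, adjusted p = 0.642, edgeR), so that it failed the correction in that test. DESeq2 called it (adjusted p = 1.52e-06), as did edgeR without HRTT replicate 1, with a difference of 2.71 (adjusted p = 0.00808). In the other alternatives of edgeR the adjusted p was 0.209 to 1.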

How the results depend on the processing

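The count of 0 called genes between LRTT and LRT was also 0 without the fold change threshold, at an adjusted p under 0.10, against a fold of 1.5, with RLE scaling, with other filters and with a replicate block. It was 1 with only the LRT and LRTT libraries in the fit and 8 with DESeq2's Wald test, and 0 to 3 when libraries were left out in turn, with 1 without HRTT replicate 1, 1 without LRTT replicate 1 and 3 without LRTT replicate 3. The difference of training effects gave 3 calls with DESeq2 and 0 to 1 with libraries left out, the 1 without HRTT replicate 1. The distance between groups reversed from -1.21 to 2.94 with the replicate block and ranged from -7.95 to 7.91 with libraries left out, positive at 1.19 without LRT replicate 2 and at 7.91 without LRTT replicate 3. The cause was not tested. The log2 fold changes of the 5 identifiers kept their sign in all 18 alternatives run for each. All but ENSRNOG00000042516 were chosen for groups that do not overlap, and its groups do not overlap either. A kept sign follows largely from this and is no separate support. Same-numbered LRT and LRTT rats deviated with correlations of -0.25, 0.019 and 0.20, so that the numbers do not pair them. Medians of the gene lists in the counts were not run, since identifiers and symbols are not paired. The genes at least 4-fold higher numbered 28 to 103 and those at least 4-fold lower 14 to 83 with 1 rat left out.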
